A study of Mus musculus with 18 samples.

Results

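The genes described here code for the general machinery of protein synthesis, namely translation initiation factors, elongation factors, the termination factor Etf1 and the aminoacyl-tRNA synthetases. Members were the array spots whose single annotated gene symbol was an Eif symbol with a digit from 1 to 6, an Eef symbol, Etf1, or a single letter followed by ars or ars2. Eif2s3y and Eif2s3x were not included. The annotation gave 72 such genes on 135 spots, and 69 of them were measured on 9 or more of the 18 arrays, out of 9675 features kept in all (6231 genes and 3444 spots without a single symbol). The 3 genes not kept were Cars (a value on 7 arrays), Eef2k (6 arrays) and Hars2 (5 arrays). The 69 genes comprised 39 initiation factors and their kinases, 8 genes of the elongation class, 1 termination factor, 13 cytosolic synthetases and 8 mitochondrial synthetases, and 42 of them had a value on all 18 arrays.

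Initiation begins when eIF2 brings the initiator tRNA to the small ribosomal subunit, where eIF3 holds the complex together, and the cap-binding eIF4 factors load the mRNA. The exchange factor eIF2B recharges eIF2 with GTP, and kinases that phosphorylate eIF2 block this recharging under amino acid, haem or other stress, which lowers general translation. Elongation factors then bring charged tRNAs and move the ribosome along the message, synthetases charge each tRNA with its amino acid, and the release factor encoded by Etf1 ends the chain. Translation is among the main consumers of ATP in a cell, and low oxygen is known to restrain it through both eIF2 and the cap-binding complex.

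Kidneys of CD1 mice, an outbred stock, were compared after 1, 2 or 4 weeks of exposure that began on postnatal day 2, so that duration is also age. The 3 conditions were constant hypoxia (11% oxygen), intermittent hypoxia (oxygen switched between 21% and 11% every 4 min) and normoxia (room air). Each of the 9 groups had 2 arrays, named A and B here, with different animals on each per the labels. Each slide received Cy5 cDNA from 1 animal labelled male and Cy3 cDNA from 1 labelled female of the same exposure, without a dye swap, and the value was the log2 ratio of these channels. Neither labels nor files say which channel is the numerator, so positive and negative below are signs of the deposited value after the median of its array was subtracted, and they say nothing on sex. A response of equal size in both animals cancels in such a ratio, and no level or tissue marker can be read from it.

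The constant hypoxia arrays were deposited on another footing. Their medians lay between -1.17 and -0.15, against -0.03 to 0.03 in intermittent hypoxia and -0.07 to 0.09 in normoxia, and they had values for 81.8% to 88.8% of spots, against 42.9% to 65.7% and 41.0% to 67.9%. Within constant hypoxia the medians were -1.05 and -1.10 at 1 week, -0.15 and -0.23 at 2 weeks and -1.17 and -0.97 at 4 weeks. In every value below this footing and constant hypoxia itself cannot be told apart. The same holds for footing and duration within constant hypoxia. A gene with several spots is the mean of those with a value on an array, so the spots behind it can differ between conditions: 29 genes had several measured spots, and for 8 of them 1 spot or more had no value in at least 1 condition. For 15 of the 29, a spot had values on all arrays of 1 condition and on 3 or fewer of another. Labels conflicted on 2 arrays: the Cy3 sample of intermittent hypoxia 2 weeks A carries a 1-week name, and constant hypoxia 4 weeks A has 2 weeks in one treatment entry. The widest arrays were intermittent hypoxia 2 weeks B (median absolute deviation 0.491) and constant hypoxia 4 weeks A (0.331). Of the markers of the cell types that a kidney sample can hold, the mean erythroid ratio (4 of 10 listed genes) ranged from -1.12 to 0.12 in constant hypoxia (median -0.58), from -1.001 to 0.24 in intermittent hypoxia (median -0.19) and from -0.67 to 0.37 in normoxia (median -0.20). Adrenal markers (2 of 4 genes) ranged from -2.66 to 1.42, from -0.53 to 1.06 and from -2.02 to 1.04 in the same order of conditions. Immune markers (2 of 6) lay between -1.13 and 0.36 over all arrays, podocyte markers (2 of 5) between -0.34 and 0.29 and tubule markers (4 of 11) between -0.28 and 0.33, while no nephron progenitor, adipose or muscle marker was kept. Whether these differences between the paired samples bear on the ratios below was not tested.

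Ratios of translation genes were mostly small, and a limited number differed from 0 in each condition. In constant hypoxia 14 of 69 genes passed the test (adjusted p under 0.05 over all features, limma), 8 positive and 6 negative, where 14.0% of all 9487 features passed (3.58% positive and 10.4% negative). In intermittent hypoxia 7 of 60 testable genes passed, 4 positive and 3 negative, where 7.6% of 6864 features passed (4.91% positive and 2.7% negative). In normoxia 3 of 62 passed, 2 positive and 1 negative, where 3.31% of 7520 features passed (1.68% positive and 1.64% negative). The median over the tested genes was -0.03 in constant hypoxia, -0.06 in intermittent hypoxia and -0.04 in normoxia, against -0.00, -0.02 and -0.01 over all features. At an unadjusted p under 0.05 the counts were 22 of 69, 20 of 60 and 16 of 62 genes, against 33.8%, 26.7% and 22.2% of all features. The heat map of every gene on every array shows that no class of more than 1 gene held one colour across a condition.

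**Figure D1:**
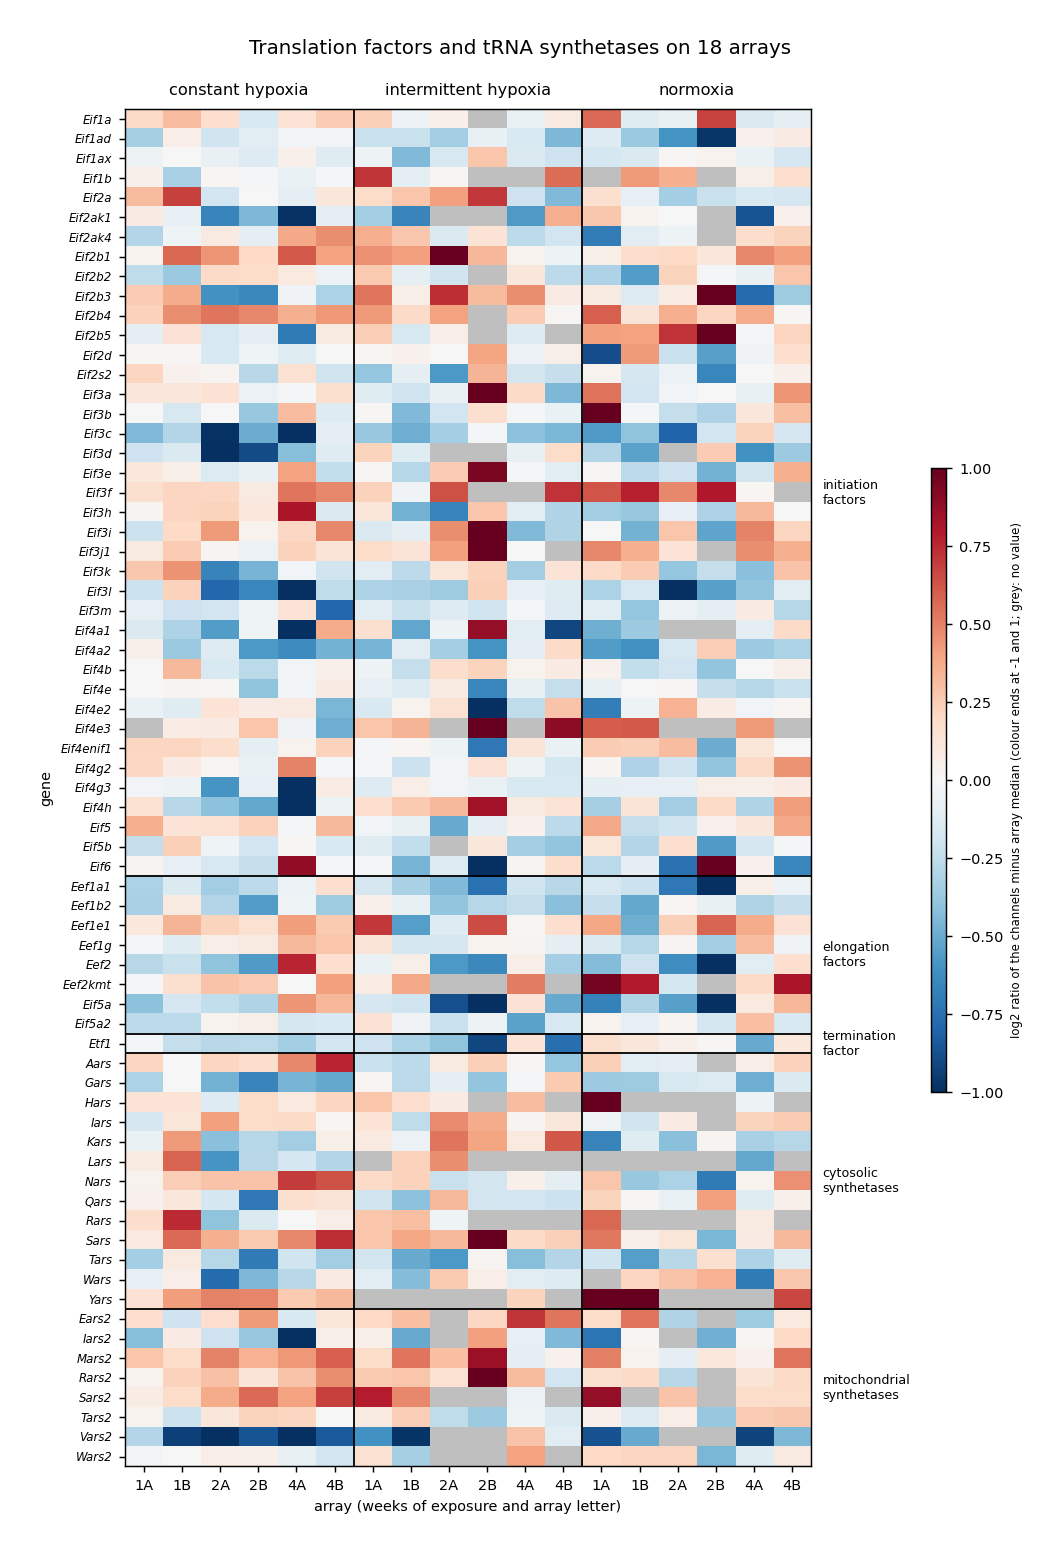
Log2 ratio of the channels minus the array median for 69 genes (rows, by class) on 18 arrays (columns, by condition, weeks of exposure and array letter), with colour ending at -1 and 1 and grey for no value. The darkest cells sit on a few arrays, chiefly intermittent hypoxia 2 weeks B, where 9 of 53 genes lay beyond 1 in size, and constant hypoxia 4 weeks A, where 7 of 69 did; on the values as deposited, before centring, the 8 positive constant hypoxia calls are negative.

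The constant hypoxia calls depended on processing choices and on single arrays. None of the 14 passed when a running median along neighbouring probe numbers was removed from each array, a step after which 0.98% of all features passed, and none passed when only the 6 constant hypoxia arrays were fitted. The estimates with the running median removed kept their sign for 13 of the 14 genes and were smaller in size for all of them. After that step Eif2b1 (0.09), Sars (0.25) and Etf1 (-0.18) did not pass in intermittent hypoxia, nor Eif2b5 (0.24) in normoxia. Eif4e3, Eif3f, Eef1a1 and Eif5a kept their calls in intermittent hypoxia, and Eif3f and Eef1a1 in normoxia. The shares of all features that passed in these conditions are not given here. With only the arrays of the condition fitted, Eif4e3 in intermittent hypoxia and Eif2b5 in normoxia were the calls that remained there. For Eif4e3 only the 1-week arrays form a pair in that condition. Leaving out 1 array at a time gave 0 to 17 calls in constant hypoxia, 0 to 12 in intermittent hypoxia and 0 to 8 in normoxia. Each such fit leaves 1 array in a group, and the share of all features that passed in it is not given here. The cause was not tested.

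Of the 5 subunits of eIF2B, the exchange factor for eIF2, 2 passed in constant hypoxia, where 14.0% of all features passed. These were Eif2b4 and Eif2b1, both with a positive ratio, and the other means there were below 0 (median of the 5 subunits -0.03). Eif2b4, its delta subunit, lay between 0.23 and 0.53 in constant hypoxia (median 0.45, n = 6), between 0.01 and 0.42 in intermittent hypoxia (median 0.25, n = 5) and between 0.01 and 0.60 in normoxia (median 0.29, n = 6). All 17 measured arrays were above 0, and the ranges of the 3 conditions overlapped. The constant hypoxia mean of Eif2b4 was 0.42 ± 0.09 (SE, n = 6 arrays, adjusted p = 0.017) relative to the array median, and it was -0.37 on the values as deposited. Eif2b4 was the single member among 60 with values on at least 15 arrays to keep 1 sign on all of them (1.67%, against 2.6% of all features).

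Eif2b1, the alpha subunit of eIF2B, passed in both hypoxia regimes. Its lowest, median and highest values were 0.03, 0.42 and 0.61 in constant hypoxia, -0.05, 0.37 and 0.99 in intermittent hypoxia and 0.06, 0.19 and 0.48 in normoxia (n = 6 each). The means were 0.38 ± 0.10 in constant hypoxia (adjusted p = 0.0284) and 0.36 ± 0.10 in intermittent hypoxia (adjusted p = 0.0423), with overlapping arrays. The intermittent hypoxia mean was 0.25 and did not pass without the 2 arrays with conflicting labels. With the running median removed it was 0.09 and did not pass.

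Eif2b5, the catalytic subunit, passed in normoxia instead. It has 2 spots, and 1 of them had values in constant hypoxia alone. Averaged over its spots it lay between -0.71 and 0.15 on the 6 constant hypoxia arrays and between -0.16 and 0.25 on 4 intermittent hypoxia arrays, against -0.02, 0.41 and 1.05 as lowest, median and highest values in normoxia (mean 0.46 ± 0.11, n = 6, adjusted p = 0.0464). Only 1 normoxia array, 4 weeks A, was below 0, and the call was lost in 13 of the 18 fits that left out 1 array. The difference of Eif2b5 was -0.60 ± 0.16 for constant hypoxia minus normoxia (adjusted p = 0.456) and -0.47 ± 0.18 for intermittent hypoxia minus normoxia (adjusted p = 0.983), so neither passed. On the spot measured in all conditions, constant hypoxia ran from -0.16 to 0.49 with 5 of 6 arrays above 0, and constant hypoxia minus normoxia was -0.26 ± 0.14 (adjusted p = 0.619), so that the larger value rests on the second spot. Eif2b3, the gamma subunit, was above 0 on all 6 intermittent hypoxia arrays (0.06 to 0.74), against -0.64 to 0.37 in constant hypoxia and -0.77 to 1.02 in normoxia, and passed nowhere. Eif2b2, the beta subunit, stayed between -0.56 and 0.27 on every array.

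For eIF2 itself, Eif2s2, the beta subunit, gave means of -0.01 ± 0.12 in constant hypoxia, -0.19 ± 0.12 in intermittent hypoxia and -0.13 ± 0.12 in normoxia, none past the threshold. Eif2a and Eif2d code for factors outside eIF2 that can deliver the initiator tRNA. Eif2a reached 0.32 and 0.68 on the 1-week constant hypoxia arrays and 0.41 and 0.70 on the 2-week intermittent hypoxia arrays, against 0.16 and -0.08 at 1 week and -0.34 and -0.22 at 2 weeks in normoxia. Of the kinases of eIF2, Eif2ak4, the sensor of uncharged tRNA also known as GCN2, gave means of 0.09, 0.03 and -0.09 in constant hypoxia, intermittent hypoxia and normoxia (SE 0.09, 0.09 and 0.11). Eif2ak1, the haem-regulated kinase, gave -0.36 ± 0.16 in constant hypoxia (adjusted p = 0.125) and -0.09 ± 0.18 on 5 arrays in normoxia, and the 4 intermittent hypoxia arrays with a value lay between -0.66 and 0.36. Eif2s1, Eif2ak2 and Eif2ak3 were not analysed here.

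Subunits of eIF3, the scaffold of the initiation complex, split in sign. In constant hypoxia 3 of 12 passed, all negative, where 10.4% of all features passed as negative and 3.58% as positive, and the 12 estimates divided into 6 positive and 6 negative. Eif3d, a subunit that can contact the mRNA cap, ran from -1.06 to -0.12 (median -0.31) with a mean of -0.48 ± 0.09 (n = 6, adjusted p = 0.0135), against -0.12 to 0.23 on 4 intermittent hypoxia arrays and -0.61 to 0.26 on 5 normoxia arrays. Its most negative values were the pair of 2-week constant hypoxia arrays, -1.06 and -0.90, which also differ in deposited median from the other arrays of that condition. Eif3c, a core subunit, had -0.44, -0.30, -0.99, -0.49, -2.48 and -0.09 on constant hypoxia 1 week A and B, 2 weeks A and B and 4 weeks A and B, a mean of -0.80 ± 0.21 (adjusted p = 0.0278). It was negative on all 6 intermittent hypoxia arrays too (-0.49 to -0.02), against -0.80 to 0.23 in normoxia, and without constant hypoxia 4 weeks A its mean was -0.40 and did not pass. Eif3l ran from -1.04 to 0.23 in constant hypoxia (mean -0.45 ± 0.12, adjusted p = 0.03), from -0.35 to 0.24 in intermittent hypoxia and from -1.17 to -0.12 in normoxia, where its mean was also -0.45 but did not pass (adjusted p = 0.0564). With the running median removed, the constant hypoxia mean of Eif3l was 0.04.

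Eif3f was the eIF3 subunit with positive calls. The 6 constant hypoxia arrays lay between 0.09 and 0.53, with a mean of 0.28 that did not pass (adjusted p = 0.0554). Its intermittent hypoxia values were 0.23 and -0.04 at 1 week, 0.63 on 2 weeks A and 0.73 on 4 weeks B, a mean of 0.49 ± 0.11 (4 arrays, adjusted p = 0.0305). Only the 1-week arrays form a pair there, so this SE does not measure the spread from -0.04 to 0.73. In normoxia it had 0.63 and 0.78 at 1 week, 0.48 and 0.80 at 2 weeks and 0.02 on 4 weeks A, a mean of 0.45 ± 0.10 (5 arrays, adjusted p = 0.0393). Over the 3 conditions 1 of the 15 measured values of Eif3f was below 0. Its normoxia call was lost in 10 of 17 fits that left out 1 array, and its intermittent hypoxia call in 7 of 16. Eif3a, Eif3i and Eif3j1 exceeded 1 on intermittent hypoxia 2 weeks B alone (1.47, 1.29 and 1.48).

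Among the cap-binding factors, Eif4e3, a divergent relative of the cap-binding protein eIF4E, had the largest positive mean of the 60 genes tested in intermittent hypoxia. Its 4 measured arrays there gave 0.28 and 0.34 at 1 week, 1.63 on 2 weeks B and 0.89 on 4 weeks B, against 0.07, 0.08, 0.28, -0.04 and -0.49 on 5 constant hypoxia arrays and 0.61, 0.61 and 0.42 on 3 normoxia arrays. The mean in intermittent hypoxia was 0.95 ± 0.13 (adjusted p = 0.00875), and it passed in every setting in which it could be fitted. It rests at 2 weeks on array B, the widest array, and at 4 weeks on array B, and without either of them no mean could be fitted. Every setting that was fitted thus keeps both arrays. In intermittent hypoxia only the 1-week arrays form a pair, so the SE does not measure the spread from 0.28 to 1.63. Intermittent hypoxia minus constant hypoxia was 0.95 ± 0.17 for Eif4e3 (adjusted p = 0.151), and the nearest arrays of the 2 conditions were both 0.28 after rounding. Normoxia had no value at 2 weeks.

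The helicase Eif4a2 ran from -0.63 to 0.05 in constant hypoxia, with a mean of -0.35 ± 0.10 (n = 6, adjusted p = 0.0336), against -0.60 to 0.19 in intermittent hypoxia (mean -0.24) and -0.60 to 0.24 in normoxia (mean -0.29). The ranges nearly coincided, and Eif4a2 minus normoxia passed in neither regime. Its close relative Eif4a1 ran from -1.70 to 0.37 in constant hypoxia, from -0.91 to 0.88 in intermittent hypoxia and from -0.49 to 0.19 on 4 normoxia arrays, and passed nowhere. Eif4e, the cap-binding protein, gave means of -0.05, -0.18 and -0.14 (SE 0.10 each) in constant hypoxia, intermittent hypoxia and normoxia, and Eif4g2, an eIF4G relative that works without eIF4E, gave 0.12, -0.06 and -0.04 (SE 0.09 each). Eif4h, a cofactor of the helicase, ran from 0.09 to 0.84 in intermittent hypoxia, from -1.06 to 0.15 in constant hypoxia and from -0.35 to 0.42 in normoxia as the mean of 2 spots, 1 of which had values on 2 intermittent hypoxia arrays. On the other spot, measured on all arrays, it was -0.64 on intermittent hypoxia 2 weeks B and its highest intermittent hypoxia value was 0.33. Intermittent minus constant hypoxia was 0.66 for the mean of both spots (adjusted p = 0.252) and 0.95 for that spot (adjusted p = 0.287). Eif6, which keeps the large ribosomal subunit apart from the small one, ranged from -1.26 to 0.18 in intermittent hypoxia, against -0.75 to 1.502 in normoxia, with -1.26 and 1.502 on the 2 weeks B array of each. Eif4g1, Eif4ebp1 and Eif4ebp2 were not analysed here.

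**Figure D2:**
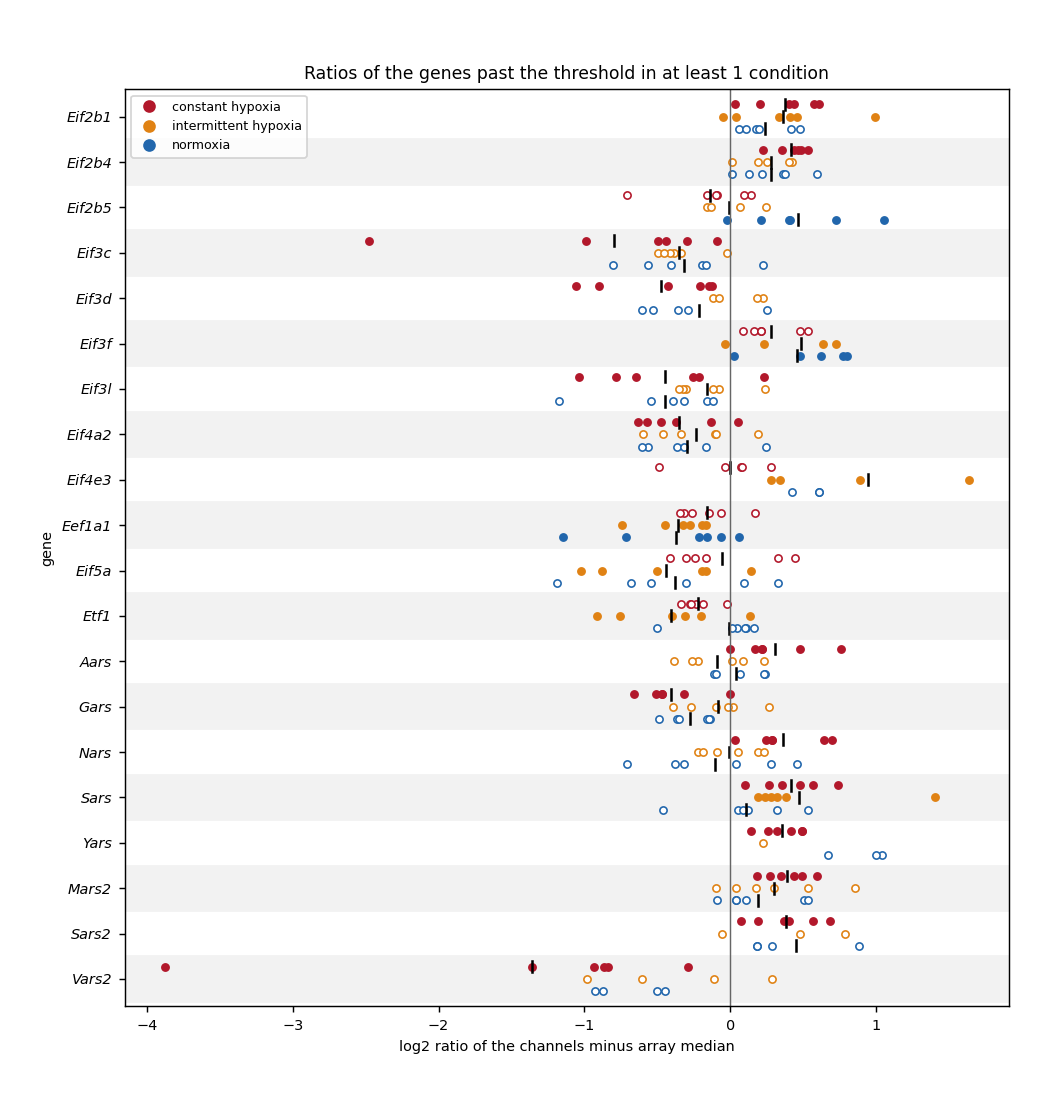
Log2 ratio minus array median (x axis) of the 20 genes past the threshold in at least 1 condition, with 1 dot per array, filled where that condition passed, and a black tick at the fitted mean. Arrays of the 3 conditions overlap for nearly every gene, Vars2 and Eif3c each have 1 distant constant hypoxia array (-3.88 and -2.48), and the filled constant hypoxia dots right of 0 lie left of 0 on average on the values as deposited.

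The genes of the elongation class that passed were Eef1a1 and Eif5a, both negative. The class gave 2 calls among 7 genes in intermittent hypoxia (7.6% of all features) and 1 among 8 in normoxia (3.31%). In constant hypoxia the class gave 0 among 8 (14.0%). Means were above 0 for 3 of its 8 genes in constant hypoxia, 1 of 7 in intermittent hypoxia and 2 of 8 in normoxia, against 49.7%, 47.0% and 48.4% of all features and 30 of 69, 24 of 60 and 23 of 62 translation genes. Eef1a1, which brings charged tRNA to the ribosome, had -0.31 and -0.15 at 1 week, -0.35 and -0.26 at 2 weeks and -0.06 and 0.17 at 4 weeks in constant hypoxia, a mean of -0.16 ± 0.09 (adjusted p = 0.202). It was negative on all 6 intermittent hypoxia arrays (-0.17 and -0.32 at 1 week, -0.44 and -0.74 at 2 weeks, -0.20 and -0.28 at 4 weeks) with a mean of -0.36 ± 0.09 (adjusted p = 0.0265). Its normoxia values were -0.16 and -0.22 at 1 week, -0.71 and -1.15 at 2 weeks and 0.06 and -0.06 at 4 weeks, a mean of -0.37 ± 0.09 (adjusted p = 0.0326). Averaged over spots, the lowest arrays of Eef1a1 were thus both 2-week pairs outside constant hypoxia, and the 3 conditions overlapped. On its spot of most values, normoxia was -0.53 and -0.32 at 1 week and -0.12 and -1.65 at 2 weeks. The 2-week intermittent hypoxia arrays were -0.63 and -1.04 on that spot.

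Eif5a, the hypusine-bearing factor that helps ribosomes through difficult peptide bonds, had -0.16 and -0.20 at 1 week, -0.88 and -1.02 at 2 weeks and 0.14 and -0.50 at 4 weeks in intermittent hypoxia, a mean of -0.44 ± 0.11 (adjusted p = 0.0286). In constant hypoxia its values were -0.41 and -0.17, -0.24 and -0.30, and 0.44 and 0.33 at the same durations. In normoxia they were -0.68 and -0.30, -0.54 and -1.19, and 0.10 and 0.33, a mean of -0.38 ± 0.11 (adjusted p = 0.0641). Both 4-week arrays of constant hypoxia and of normoxia were above 0 and all of their earlier arrays below it. Eef2, the translocase, also had its highest constant hypoxia and normoxia arrays at 4 weeks, with -0.28 and -0.22, -0.40 and -0.57, and 0.76 and 0.17 in constant hypoxia, -0.07 and 0.06, -0.57 and -0.65, and 0.07 and -0.34 in intermittent hypoxia, and -0.43 and -0.20, -0.62 and -1.11, and -0.12 and 0.17 in normoxia. Its means were -0.09, -0.25 and -0.39 (SE 0.10 each) and none passed, with normoxia nearest (adjusted p = 0.0526).

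Without intermittent hypoxia 2 weeks B the intermittent hypoxia means were -0.31 for Eef1a1 and -0.41 for Eif5a, and neither passed. The normoxia call of Eef1a1 was lost in 9 of the 18 fits that left out 1 array. Eef1a1 had values on 7 spots, and the 5 that could be tested singly in intermittent hypoxia gave means from -0.56 to -0.03, of which 1 passed. With the spot of most values alone its intermittent hypoxia mean was -0.55 (adjusted p = 0.052). Eef1b2, an exchange factor for eEF1A, lay between -0.56 and 0.09 in constant hypoxia (mean -0.25, adjusted p = 0.0723), between -0.42 and 0.05 in intermittent hypoxia and between -0.51 and 0.02 in normoxia. Eef2kmt, which methylates eEF2 and belongs to the class by its symbol, had -0.02 to 0.41 in constant hypoxia, 0.07 to 0.51 on 3 intermittent hypoxia arrays and -0.17 to 0.96 on 5 normoxia arrays. Eef1e1, a scaffold of the synthetase complex that is in the class by its symbol too, was positive on all 6 constant hypoxia arrays (0.11 to 0.42).

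**Figure D3:**
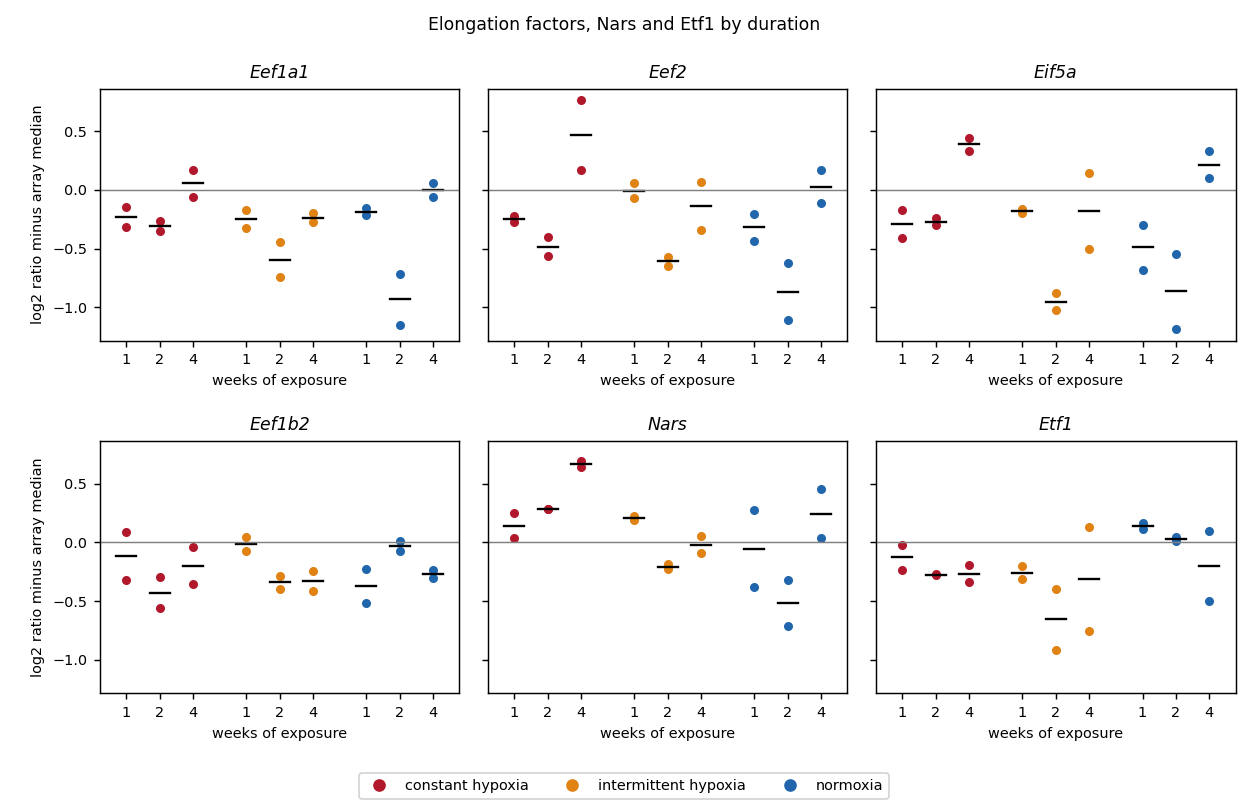
Log2 ratio minus array median for Eef1a1, Eef2, Eif5a, Eef1b2, the synthetase Nars and the release factor Etf1 against weeks of exposure, with 1 dot per array and a bar at the mean of the 2 arrays of a group. Eef1a1, Eef2 and Eif5a are on average lowest at 2 weeks in intermittent hypoxia and in normoxia (Eif5a -0.88 and -1.02, and -0.54 and -1.19), and on the values as deposited the constant hypoxia dots lie lower by each array's median. On its spot of most values alone, Eef1a1 had -0.12 and -1.65 on the 2-week normoxia arrays.

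Etf1, the release factor that reads all stop codons, passed in intermittent hypoxia, where its values were -0.20 and -0.31 at 1 week, -0.40 and -0.91 at 2 weeks and 0.13 and -0.76 at 4 weeks. The mean was -0.41 ± 0.12 (n = 6, adjusted p = 0.0494), against -0.22 ± 0.12 in constant hypoxia (-0.34 to -0.02, adjusted p = 0.199) and -0.01 ± 0.12 in normoxia (-0.50 to 0.16). These values average 2 spots, which correlated at -0.75 over arrays, and 1 of them had values on 2 intermittent hypoxia and 3 normoxia arrays. On the spot measured on all 18 arrays, Etf1 was below 0 on 6 of 6 intermittent hypoxia arrays (-0.88 to -0.31), on 3 of 6 in constant hypoxia and on 3 of 6 in normoxia. Intermittent hypoxia minus normoxia was -0.40 ± 0.17 for both spots (adjusted p = 0.983) and -0.45 for that spot (adjusted p = 0.991). Constant hypoxia minus normoxia was -0.21 for both and 0.13 for that spot, so its sign rests on the spots used, and no difference passed. The call in intermittent hypoxia was lost in 12 of the 18 fits that left out 1 array, among them the fit without 2 weeks B (mean -0.32).

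The cytosolic synthetases gave 5 calls among 13 in constant hypoxia (4 positive, 1 negative), where 14.0% of all features passed. They gave 1 among 10 in intermittent hypoxia, where 7.6% of all features passed, and none among 9 in normoxia (3.31%), where 2 of the 9 had an unadjusted p under 0.05 (22.2% of all features). Sars, the seryl-tRNA synthetase, passed in both hypoxia regimes. Its lowest, median and highest values were 0.10, 0.42 and 0.74 in constant hypoxia (mean 0.42 ± 0.13, adjusted p = 0.0491), 0.19, 0.30 and 1.41 in intermittent hypoxia (mean 0.47 ± 0.13, adjusted p = 0.0457) and -0.46, 0.10 and 0.53 in normoxia. All 12 hypoxia arrays were above 0, and so were 5 of 6 in normoxia. The intermittent hypoxia mean was 0.29 without 2 weeks B and did not pass. Of the 18 fits that left out 1 array, 14 lost the constant hypoxia call of Sars and 11 its intermittent hypoxia call.

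Nars, the asparaginyl-tRNA synthetase, had 0.03 and 0.25 at 1 week, 0.28 and 0.28 at 2 weeks and 0.70 and 0.64 at 4 weeks in constant hypoxia, a mean of 0.36 ± 0.10 (adjusted p = 0.0308). Intermittent hypoxia arrays lay between -0.22 and 0.23, and normoxia arrays between -0.71 and 0.46. The highest values were the 4-week constant hypoxia pair, and Nars minus normoxia was 0.47 ± 0.14 in constant hypoxia (adjusted p = 0.523). Gars, the glycyl-tRNA synthetase, was the negative call, at -0.66, -0.47 and 0.00 as lowest, median and highest constant hypoxia values (mean -0.40 ± 0.09, adjusted p = 0.0154). It was -0.39 to 0.26 in intermittent hypoxia and -0.49 to -0.14 in normoxia, where all 6 arrays were below 0.

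Aars and Yars, the alanyl- and tyrosyl-tRNA synthetases, were the other positive calls, and they share a promoter motif with Iars and Tars. The search used the core TGATGCAA, a motif known from stress-response elements that bind the factor ATF4, on both strands from 250 bases before to 50 bases after each RefSeq start (GRCm38.p6), where 54 of the 69 genes had an entry. It was present for 4 of 8 cytosolic synthetases, none of 31 initiation factors, none of 7 elongation genes and none of 8 mitochondrial synthetases, against 1.03% of 27025 genes. The shorter core of the hypoxia response element, ACGTG, was in 40.7% of the 54 genes and 21.8% of all genes, and the E box CACGTG, which contains it, was in 25.9% and 8.09%. The sequences are shown because these 4 genes carry the same core and differ in their ratios. Capitals mark TGATGCAA or its reverse complement, with 20 bases on each side up to at most 30 bases after the start, written 5′ to 3′ on the strand of the gene.
Aars, chr8:111033710-111033757, + strand: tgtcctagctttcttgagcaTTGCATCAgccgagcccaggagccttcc
Iars, chr13:49682117-49682159, + strand: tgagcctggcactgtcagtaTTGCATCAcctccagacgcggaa
Tars, chr15:11399646-11399693, - strand: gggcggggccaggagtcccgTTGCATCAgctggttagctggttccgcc
Yars, chr4:129189886-129189932, + strand: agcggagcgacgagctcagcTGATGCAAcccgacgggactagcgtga

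The core is written forward on the gene strand in Yars and in reverse in Aars, Iars and Tars, and its first base lies at position -112 relative to the start in Aars, -15 in Tars, 8 in Iars and 4 in Yars. Aars had 0.22 and 0.00 at 1 week, 0.22 and 0.17 at 2 weeks and 0.48 and 0.76 at 4 weeks in constant hypoxia (mean 0.31 ± 0.09, adjusted p = 0.0406), against -0.39 to 0.23 in intermittent hypoxia and -0.11 to 0.24 on 5 normoxia arrays. Yars lay between 0.14 and 0.49 on the 6 constant hypoxia arrays (mean 0.36 ± 0.09, adjusted p = 0.0356), and had 0.23 on its single intermittent hypoxia array and 1.04, 1.00 and 0.67 on 3 normoxia arrays. The normoxia values of Yars were thus above all 6 of constant hypoxia, on 3 arrays and with none at 2 weeks. Tars, the threonyl-tRNA synthetase, had the opposite sign, with -0.71 to 0.09 in constant hypoxia (mean -0.30, adjusted p = 0.0772), -0.58 to 0.03 in intermittent hypoxia (mean -0.32, adjusted p = 0.0825) and -0.55 to 0.16 in normoxia. Iars, the isoleucyl-tRNA synthetase, ran from -0.17 to 0.41, from -0.26 to 0.48 and from -0.20 to 0.25 (5 arrays) in the same order of conditions. Of the 4 genes with the core, 2 passed with a positive ratio in constant hypoxia and the other two did not pass.

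Kars, the lysyl-tRNA synthetase, gave the largest positive difference between intermittent hypoxia and normoxia. It had 0.09 and -0.06 at 1 week, 0.54 and 0.40 at 2 weeks and 0.10 and 0.62 at 4 weeks in intermittent hypoxia, against -0.66 and -0.12, -0.41 and 0.03, and -0.32 and -0.28 in normoxia, while constant hypoxia ranged from -0.42 to 0.42. Intermittent hypoxia minus normoxia was 0.58 ± 0.16 (adjusted p = 0.753), with 5 of 6 intermittent hypoxia arrays above 0 and 5 of 6 normoxia arrays below it. Hars, Lars and Rars were sparse outside constant hypoxia, with 2, 1 and 2 normoxia arrays.

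Of the 8 mitochondrial synthetases, which charge the tRNAs encoded in mitochondrial DNA, 3 passed in constant hypoxia (14.0% of all features), and none passed among 5 testable in intermittent hypoxia (7.6%) or 7 in normoxia (3.31%). An unadjusted p under 0.05 was reached by 3 of 5 in intermittent hypoxia and 1 of 7 in normoxia, against 26.7% and 22.2% of all features. Mars2, for methionine, lay between 0.19 and 0.60 in constant hypoxia (median 0.39, mean 0.39 ± 0.10, adjusted p = 0.0292), between -0.10 and 0.86 in intermittent hypoxia (mean 0.30) and between -0.09 and 0.54 in normoxia (mean 0.19). Sars2, for serine, lay between 0.07 and 0.68 in constant hypoxia (median 0.39, mean 0.38 ± 0.09, adjusted p = 0.0287), with 0.79, 0.48 and -0.05 on 3 intermittent hypoxia arrays and 0.88, 0.29, 0.18 and 0.18 on 4 normoxia arrays (mean 0.45 ± 0.12, adjusted p = 0.0673). Both were above 0 on every constant hypoxia array and overlapped the other conditions.

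Vars2, the valyl enzyme of mitochondria, had the most negative mean of the 69 genes in constant hypoxia. Its constant hypoxia values were -0.29 and -0.93 at 1 week, -1.36 and -0.86 at 2 weeks and -3.88 and -0.84 at 4 weeks, a mean of -1.36 ± 0.28 (adjusted p = 0.0149). Without 4 weeks A the mean was -0.85 and still passed, and with the running median removed it was -0.36 and did not. It was negative as well on 3 of 4 intermittent hypoxia arrays (-0.60, -0.98, 0.29 and -0.11) and on all 4 measured normoxia arrays (-0.87, -0.50, -0.93 and -0.45), and no mean could be fitted in these conditions because both 2-week values were missing.

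The other mitochondrial enzymes passed in no condition. Ears2 was above 0 on all 5 intermittent hypoxia arrays (0.20 to 0.72, mean 0.36 ± 0.12, adjusted p = 0.0793), against -0.21 to 0.42 in constant hypoxia and -0.35 to 0.53 on 5 normoxia arrays. Rars2 gave 0.24 ± 0.11, 0.31 ± 0.11 and 0.02 ± 0.13 in constant hypoxia, intermittent hypoxia and normoxia. Iars2 gave -0.54 ± 0.24, -0.03 ± 0.27 and -0.24 ± 0.27, with -2.37 on constant hypoxia 4 weeks A. Tars2 gave 0.06, -0.08 and 0.02 (SE 0.09 each). Wars2 gave -0.03 in constant hypoxia and 0.02 in normoxia (SE 0.10 each) and had 3 arrays in intermittent hypoxia, at 0.15, -0.33 and 0.40.

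No translation gene differed between conditions past the threshold over the 3 durations together. Constant hypoxia minus normoxia gave 0 calls among 62 genes (0.0% of 7344 features), with 3 genes at an unadjusted p under 0.05 (4.84%, against 8.61% of all features). Intermittent hypoxia minus normoxia gave 0 among 57 (0.0% of 6317), with 6 at an unadjusted p under 0.05 (10.5%, against 4.69%). Intermittent minus constant hypoxia gave 0 among 60 (0.0299% of 6692, or 2 features), with 9 at an unadjusted p under 0.05 (12.6% of all features). Eif1b gave -0.36 ± 0.19 in constant hypoxia minus normoxia (6 and 4 arrays, adjusted p = 0.607), and on its spot of most values the arrays of these conditions overlap. The counts against constant hypoxia moved when its 4 weeks B was left out. That fit leaves 4 weeks A, the widest constant hypoxia array, alone in its group.

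The largest differences of constant hypoxia minus normoxia by p were positive for Nars (0.47), Eif2a (0.27), Eif5a (0.32), Eef2 (0.30) and Aars (0.27), and negative for Eif2b5 (-0.60), Wars (-0.34), Eif1b (-0.36), Eif3d (-0.26) and Eif4g3 (-0.37). For intermittent hypoxia minus normoxia they were positive for Kars (0.58), Eif2a (0.29), Ears2 (0.38), Eif2b3 (0.38) and Sars (0.36), and negative for Eif2b5 (-0.47), Etf1 (-0.40), Eif5 (-0.23), Qars (-0.23) and Eif3b (-0.28). Between the hypoxia regimes, intermittent minus constant, they were positive for Eif4e3 (0.95), Eif4h (0.66), Eif2b3 (0.53), Gars (0.32) and Kars (0.39) and negative for Aars (-0.40), Nars (-0.37), Eif5a (-0.38), Eif5 (-0.35) and Eif3h (-0.40). None of these passed. With the spot of most values in place of the mean over spots, constant hypoxia minus normoxia was -0.26 for Eif2b5, -0.22 for Eif1b and 0.50 for Eef2, intermittent hypoxia minus normoxia was -0.06 for Eif5, and intermittent minus constant hypoxia was -0.23 for Eif5. The positive ones against normoxia in constant hypoxia are negative on the values as deposited (-0.54 to -0.33). Eif2a and Eif2b5 appear in both comparisons with normoxia, which share the normoxia arrays.

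Class medians of the differences were close to 0. For constant hypoxia minus normoxia they were 0.03 for initiation factors, 0.11 for elongation factors, 0.06 for cytosolic and 0.04 for mitochondrial synthetases, against -0.03 over all features. For intermittent hypoxia minus normoxia they were 0.01, -0.00, 0.08 and 0.21 in the same order of classes, against 0.01 over all features. The value of 0.21 for mitochondrial synthetases was 0.02 without intermittent hypoxia 2 weeks B. The plot of estimates by gene shows the spread inside each class.

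**Figure D4:**
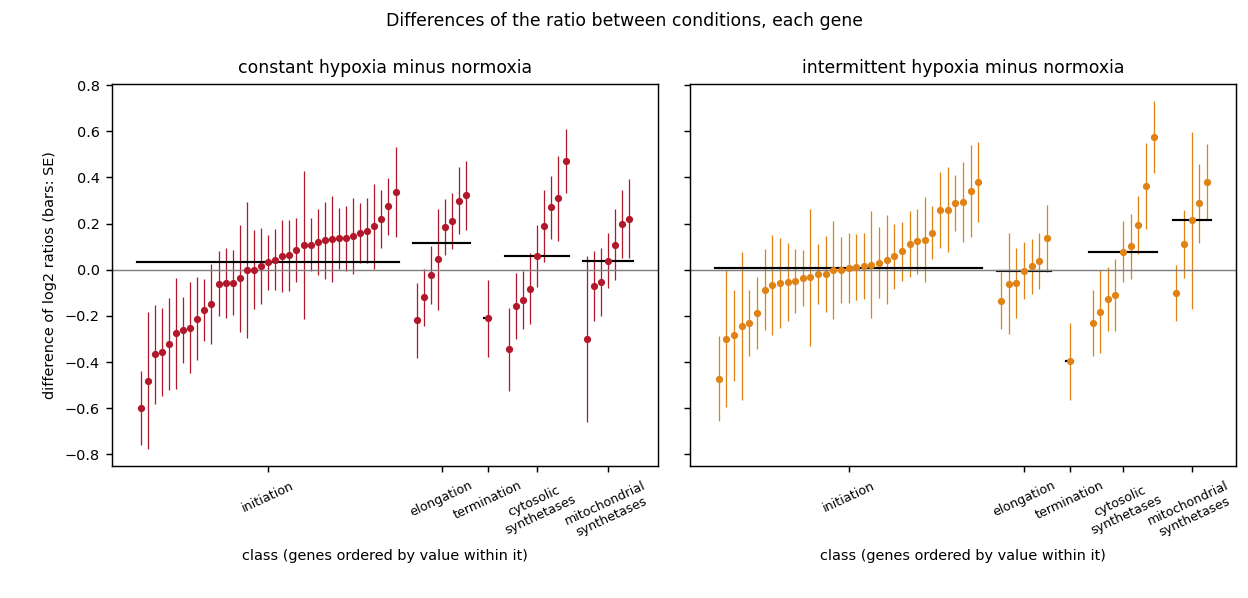
Difference of the log2 ratio (y axis) for each gene, ordered by value within its class, with bars for the standard error and a black line at the class median, for constant hypoxia minus normoxia and intermittent hypoxia minus normoxia. Estimates run through 0 in every class of more than 1 gene, the class medians lie between -0.00 and 0.21, and on the values as deposited the constant hypoxia medians lie between -0.77 and -0.69.

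Within single durations no translation gene passed either. Constant hypoxia minus normoxia gave 0 calls among 68 genes at 1 week (0.0657% of 9138 features), 0 among 62 at 2 weeks (0.063% of 7937) and 0 among 69 at 4 weeks (0.0222% of 8993), with 6, 10 and 5 genes at an unadjusted p under 0.05 (6.53%, 10.3% and 7.44% of all features). The calls over all features at 2 weeks were 0.0252% positive and 0.0378% negative. Intermittent hypoxia minus normoxia gave 0 among 67 at 1 week (0.0% of 8795), 0 among 57 at 2 weeks (0.162% of 6779) and 0 among 67 at 4 weeks (0.0% of 8448), with 6, 14 and 6 genes at an unadjusted p under 0.05 (4.56%, 14.0% and 9.48% of all features).

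The differences named here are those of smallest p in each direction. At 2 weeks, Eif3d gave -1.23 ± 0.28 for constant hypoxia minus normoxia (means -0.98 on 2 arrays and 0.26 on 1, adjusted p = 0.13), Eif2b3 gave -1.17 (means -0.62 and 0.54, adjusted p = 0.162) and Eif2b5 gave -1.02 (adjusted p = 0.201), or -0.51 on its spot measured in all conditions (adjusted p = 0.487). Positive differences there were led by Nars (0.80, adjusted p = 0.231), Eef1a1 (0.63, adjusted p = 0.274) and Eif1ad (0.63). The spots behind Eef1a1 differ: 1 had values on 6 constant hypoxia and 2 normoxia arrays, and another on 2 and 6. For intermittent hypoxia minus normoxia at 2 weeks, Eif2a gave 0.84 ± 0.21 (adjusted p = 0.121), Eif3e 0.94 (adjusted p = 0.168) and Sars 1.03 (adjusted p = 0.18), with Eif4e2, a cap-binding repressor, at -1.22, Eif2b5 at -0.82 and Etf1 at -0.68. Eif3e, Sars and Eif4e2 had their extreme value on intermittent hypoxia 2 weeks B (0.94, 1.41 and -2.17). The 2-week counts moved without intermittent hypoxia 2 weeks A or without normoxia 2 weeks A, fits that leave 1 array in that group.

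At 1 week, constant hypoxia minus normoxia was led by Yars (-0.74, means 0.28 and 1.02), Hars (-0.89), Eef2kmt (-0.80) and Eif2a (0.46), with adjusted p values of 0.48 or more. Intermittent hypoxia minus normoxia at 1 week was led by Eif2ak4 (0.72, adjusted p = 0.92), Eif3b (-0.86), Hars (-0.81) and Eif3f (-0.60). Hars had a single normoxia array at 1 week. At 4 weeks the constant hypoxia differences were led by Vars2 (-1.67), Eif3c (-1.31) and Eif4g3 (-0.83), each with an adjusted p of 0.653 and each with its lowest value on array A, and by Eif3f (0.48), Aars (0.47) and Eef2 (0.44). On the spot of most values alone, Eif4g3 gave -1.26 and Eef2 0.23. Eif3f had a single normoxia array at 4 weeks. The intermittent hypoxia differences at 4 weeks were led by Eif2b3 (0.84), Ears2 (0.75), Kars (0.66) and Eif3i (-0.73).

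Most genes of the elongation class had a higher ratio at 4 weeks than at 1 week in 2 of the 3 conditions, without a call. In constant hypoxia 7 of its 8 genes had a higher ratio at 4 weeks than at 1 week (median 0.21), in intermittent hypoxia 3 of 8 (median -0.00) and in normoxia 7 of 8 (median 0.25), against -0.04, 0.01 and -0.02 over all features. Array medians over the class were -0.27 and -0.13 at 1 week, -0.10 and -0.10 at 2 weeks and 0.16 and 0.22 at 4 weeks in constant hypoxia. They were 0.06 and -0.13, -0.39 and -0.28, and 0.02 and -0.28 in intermittent hypoxia, and -0.15 and -0.25, -0.08 and -0.35, and 0.14 and 0.05 in normoxia. The 4-week arrays of constant hypoxia and normoxia were the higher ones, as the plot of class medians shows. Genes of the class share arrays and are not replicates of a condition.

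**Figure D5:**
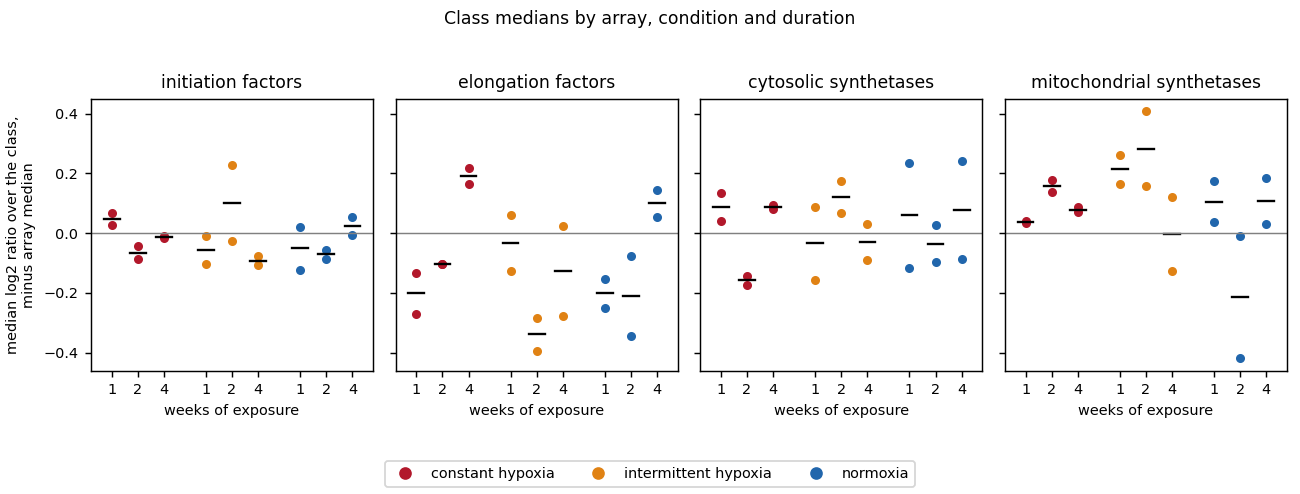
Median log2 ratio over the genes of a class, minus the array median (y axis), against weeks of exposure, with 1 dot per array and a bar at the mean of the 2 arrays of a group. Elongation factors have their highest medians at 4 weeks in constant hypoxia (0.16 and 0.22) and in normoxia (0.14 and 0.05), while initiation factors stay between -0.12 and 0.23; as deposited, each constant hypoxia dot lies lower by its array's median.

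No single gene differed between 4 weeks and 1 week past the threshold. There were 0 calls among 69 genes in constant hypoxia (0.0% of 9490 features), 0 among 66 in intermittent hypoxia (0.0% of 8413) and 0 among 68 in normoxia (0.0% of 8792), with 8, 4 and 6 genes at an unadjusted p under 0.05 (9.29%, 4.17% and 10.8% of all features). The constant hypoxia count moved without its 4 weeks B, a fit that leaves array A alone at 4 weeks. The largest by p in constant hypoxia were Eef2 (0.72 ± 0.25, adjusted p = 0.503), Eif5a (0.68), Eif2ak4 (0.59), Vars2 (-1.75), Eif2a (-0.49) and Eif3l (-0.66). In intermittent hypoxia they were Eif3f (0.63), Eif4e3 (0.58), Eif2a (-0.56), Sars2 (-0.69) and Eif2ak4 (-0.54), with adjusted p values of 1.0. In normoxia they were Eif5a (0.70, adjusted p = 0.359), Eif2ak4 (0.60), Eif2b2 (0.53), Hars (-1.08, 1 array each), Eif3f (-0.68) and Sars2 (-0.70). A single array stood behind Sars2 at 1 week and Eif3f at 4 weeks in normoxia. The same holds for Eif3f, Eif4e3 and Sars2 at 4 weeks in intermittent hypoxia.

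The change with duration was then compared between each hypoxia regime and normoxia. It gave 0 calls for constant hypoxia (0.0% of 8615 features) and 0 for intermittent hypoxia (0.0% of 7916), where 5.06% and 9.55% of all features had an unadjusted p under 0.05. For intermittent hypoxia the smallest p values belonged to Eif2ak4, at -1.14 ± 0.32, and Eif3f, at 1.31 ± 0.37 (adjusted p = 0.414 each). Eif2ak4 had 0.36 and 0.27 at 1 week and -0.26 and -0.19 at 4 weeks in intermittent hypoxia, against -0.70 and -0.10 and 0.18 and 0.22 in normoxia, so the pairs of arrays had opposite signs at each of these durations. Constant hypoxia had -0.29 and -0.04 at 1 week and 0.38 and 0.46 at 4 weeks, the same direction as normoxia. The difference of change for constant hypoxia had its smallest p values among positive estimates for Sars2 (1.11), Eif3f (1.00) and Hars (1.10), and among negative ones for Eif3c (-1.43), Eif4a2 (-0.64) and Vars2 (-1.75). In normoxia Sars2 and Hars had a single array at 1 week, and Eif3f and Hars a single array at 4 weeks. Eif3f had a single array at 4 weeks in intermittent hypoxia too.

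Correlations between translation genes across the 18 arrays were mostly weak. Over the 42 genes with all values the median correlation between 2 genes was 0.06, against -0.00 over all features with 18 values, and it was 0.22 among eIF2 and eIF2B genes, 0.15 among eIF3 subunits, 0.15 in the elongation class, 0.13 among cytosolic synthetases and -0.07 in the cap complex. The closest pairs were Eif3c with Eif4g3 (r = 0.94), Eef2 with Eif5a (0.90), Eef1a1 with Eif5a (0.83) and Eef1a1 with Eef2 (0.78), and the most opposed were Eif3a with Eif4e2 (-0.90) and Eif4e2 with Sars (-0.78). Constant hypoxia 4 weeks A held the lowest value of Eif3c and of Eif4g3 (-2.48 and -1.60), and intermittent hypoxia 2 weeks B the extremes of Eif3a, Sars and Eif4e2. Normoxia 2 weeks B held the lowest value of Eef1a1, Eef2 and Eif5a (-1.15, -1.11 and -1.19). These correlations are over 18 arrays that differ in spread and footing and carry no p value.

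Spots of 1 gene often differed. For the 24 genes with at least 2 well-measured spots the median correlation between spots was 0.09, and it was below 0 for 10 of them. It was 0.59 for Eef1a1, 0.50 for Nars, 0.43 for Mars2, 0.37 for Eef2 and -0.17 for Sars. The spots of Sars still all had positive constant hypoxia means (0.29 to 0.58 over 3 spots), as did those of Nars (0.30 to 0.43) and Mars2 (0.31 to 0.48), while those of Etf1 ran from -0.49 to 0.04. With the spot of most values in place of the mean over spots, constant hypoxia means were 0.31 against -0.01 for Eif2s2, -0.31 against -0.05 for Eif4e, -0.50 against 0.07 for Eif6 and 0.01 against 0.24 for Rars2. Within groups, the median SD of a translation gene was 0.17 in constant hypoxia, 0.22 in intermittent hypoxia and 0.25 in normoxia, against 0.22, 0.26 and 0.27 over all features, and the correlation between arrays A and B over these genes ran from 0.22 (intermittent hypoxia, 4 weeks) to 0.81 (constant hypoxia, 2 weeks).

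Neighbouring genes of the pathway that the symbols did not cover gave few calls. Of 27 such genes kept, 2 were positive and 2 negative in constant hypoxia, where 14.0% of all features passed, 2 positive and 1 negative among 21 in intermittent hypoxia (7.6% of all features) and none among 23 in normoxia (3.31%). The constant hypoxia count is near the share over all features, and none passed in any comparison between conditions or durations. In constant hypoxia the calls were Pabpc1, the poly(A)-binding protein (0.37), Akt1s1, an mTORC1 inhibitor (0.38), Aimp1, a scaffold of the synthetase complex (-0.81), and Farsa, the phenylalanyl-tRNA synthetase alpha chain (-0.46). In intermittent hypoxia they were Ppp1r15a, which helps dephosphorylate eIF2 (0.65), Tsfm, a mitochondrial elongation factor (0.52), and Farsa again (-0.56). Atf4, the transcription factor induced when eIF2 is phosphorylated, gave -0.18, -0.32 and -0.19 in constant hypoxia, intermittent hypoxia and normoxia and did not pass. The lists held 6 of 26 other synthetases and scaffolds, 2 of 6 release and recycling factors, 5 of 6 mitochondrial translation factors, 5 of 5 poly(A)-binding genes, 3 of 10 stress-response genes and 6 of 14 mTOR and MNK genes.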

How the data were processed

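Kidney cDNA was measured on 18 two-channel arrays in 9 groups of 2, grouped by title. The authors deposited 1 log2 ratio per spot and array. Their background correction, filtering and normalization are not given in the sources used. Base 2 was inferred from 500 values per array: 2 to the power of the value was a ratio of whole numbers (denominator up to 600, relative tolerance 3e-09) for 21.2% to 76.6% of them, while base e reached 1.2% and base 10 reached 1.6%.

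Spots of 1 symbol were averaged, features with at least 9 of 18 values were kept, and the median of each array was subtracted. One limma model (3.58.1, R 4.3.3, prior degrees of freedom 5.098) with 9 group means covered all features. P values are two-sided and Benjamini-Hochberg adjusted over every feature with an estimate (threshold 0.05). A condition mean averages its 3 durations, so it needs a value at each. The number of arrays limits precision, at a median SE of 0.12 for a constant hypoxia mean over all features. The fit was run on simulated data with independent noise, equal in spread on all arrays. The real arrays differ in spread and footing, so that run does not show how the fit behaves on them.

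Members and lists were chosen with earlier results of these data known. Named genes were members past the threshold (at most 10 each way by p, filled to 5; at most 5, filled to 3, within durations and over time) and a list of central factors and all mitochondrial synthetases. Alternatives covered centring, scaling, a running median along probe numbers, filters, spot choice, variance model, arrays fitted, array letter as a block, and arrays left out. Promoters came from RefSeq (GRCm38.p6).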

Additional observations from a re-analysis of the deposited data

Results flagged for a closer look

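In 36 sets of 4 to 6 arrays, 5 had a lowest or highest array far from the rest, and chance flags about 1 in 20 groups. The sets share arrays and include genes already called here, so the count was not tested against that rate. Vars2 had -3.88 on constant hypoxia 4 weeks A, against -1.36 to -0.29 on the other 5 constant hypoxia arrays. Eif3c had -2.48 on the same array, against -0.99 to -0.09. Sars had 1.41 on intermittent hypoxia 2 weeks B, against 0.19 to 0.38 on the other 5 arrays of that condition. The median of the initiation factors was 0.23 on intermittent hypoxia 2 weeks B, against -0.11 to -0.01. The median of the mitochondrial synthetases was -0.42 on normoxia 2 weeks B, where 4 of them had a value, against -0.01 to 0.19. The first 4 of these lie on the 2 widest arrays, where 16.1% of all features (4 weeks A of constant hypoxia) and 17.9% (2 weeks B of intermittent hypoxia) lay beyond 1 in size, against 0.235% to 5.22% on the others. The part of array spread in these values was not tested.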

How the results depend on the processing

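Counts of genes past the threshold moved with the arrays used. Constant hypoxia, with 14 genes, had 69 on the values as deposited, 0 with the running median removed, 0 with only its own arrays fitted, and 9 both without the 2 arrays with conflicting labels and without the 2 arrays of widest spread (4 weeks A of constant hypoxia and 2 weeks B of intermittent hypoxia, a setting chosen after seeing the data). Leaving out 1 array gave 0 to 17, with 0 without 1 week B, 2 weeks A or 2 weeks B, 4 without 1 week A and 5 without 4 weeks A of that condition. Intermittent hypoxia, with 7, had 4 as deposited, 4 scaled by spread, 11 with every spot tested, 1 with only its own arrays (Eif4e3), 13 without conflicting labels, 3 without the widest arrays, and 0 to 12 leaving out 1 array, with 0 without its 4 weeks B and 12 without its 2 weeks A. Normoxia, with 3, had 1 as deposited, 5 with every spot, 1 with its own arrays (Eif2b5), 9 without conflicting labels, 9 without the widest arrays, and 0 to 8 leaving out 1 array. For most settings the share of all features that passed is not given here, so these counts are no result about these genes. A fit without 1 array also leaves its group with 1 array. The cause of these shifts was not tested.

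The condition differences, with 0, had 62 (constant hypoxia minus normoxia) and 57 (intermittent minus constant hypoxia) as deposited. The second had 1, Eif4e3, both with the running median removed and without conflicting labels. Counts of both differences moved without constant hypoxia 4 weeks B, which leaves array A alone in its group. So did those of 4 weeks minus 1 week in constant hypoxia, the difference of change, and constant hypoxia minus normoxia at 4 weeks. As deposited, constant hypoxia minus normoxia had 59 at 1 week and 67 at 4 weeks. At 2 weeks it had 1 with every spot, 2 (Eif3d and Eif2b5) without conflicting labels and 2 without the widest arrays, and it moved without normoxia 2 weeks A. The count of intermittent hypoxia minus normoxia at 2 weeks moved without conflicting labels and without intermittent hypoxia 2 weeks A. Both settings leave array B alone in that group. Class medians for constant hypoxia minus normoxia were -0.77 (initiation), -0.69 (elongation), -0.76 (cytosolic) and -0.77 (mitochondrial) as deposited, and -0.044 for initiation with the spot of most values. Leaving out 1 array, they ran from 0.046 to 0.25 for elongation and from -0.13 to 0.12 for cytosolic synthetases, the ends at 0.25 and -0.13 without normoxia 2 weeks A. For mitochondrial synthetases in intermittent hypoxia minus normoxia the median was 0.076 scaled by spread, 0.020 without the widest arrays, and 0.020 to 0.29 leaving out 1 array.

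With the array letter as a replicate block the intermittent hypoxia count was 3, and 7 of 24 calls did not pass. The letters did not pair the arrays: over 36 pairs of groups the correlation of A minus B across features ran from -0.35 to 0.42 (median 0.01), with 7 over 0.1.

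Signs turned for 47 named values as deposited, where the constant hypoxia medians stay in the values, and for Eif3l in constant hypoxia with the running median removed (0.036). Constant hypoxia ratios were then -0.37 for Eif2b4 and Sars, -0.41 for Eif2b1 and Sars2, -0.40 for Mars2, -0.42 for Nars, -0.43 for Yars, -0.48 for Aars, -0.70 for Ears2 and Eif2ak4, -0.67 for Eif4g2, -0.72 for Eif6, -0.55 for Rars2 and -0.73 for Tars2. Constant hypoxia minus normoxia was -0.33 for Nars, -0.53 for Eif2a, -0.48 for Eif5a, -0.51 for Eef2, -0.54 for Aars, -0.71 for Ears2, -0.59 for Eef1a1 and Rars2, -0.64 for Eif2ak4, -0.68 for Eif2s2, -0.72 for Eif4e, -0.65 for Eif4g2, -0.70 for Eif6, -0.61 for Mars2 and -0.77 for Tars2. At 1 week it was -0.56 for Eif2a and -0.60 for Eif4a2, and at 4 weeks -0.65 for Aars, -0.66 for Eif3f and -0.68 for Eef2. Intermittent minus constant hypoxia was 0.39 for Aars, 0.42 for Nars, 0.41 for Eif5a, 0.43 for Eif5, 0.59 for Eef1a1, 0.62 for Eef2, 0.73 for Eif2ak4, 0.61 for Eif2s2 and Eif4g2, 0.65 for Eif4e and Tars2, 0.60 for Etf1 and 0.70 for Mars2.

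The signal behind a ratio is not known here, only 2 arrays stand behind each group, and 27 of the 69 genes lack a value on at least 1 array.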
